A study of Mus musculus with 10 samples.

Results

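The genes described here are named for proteins of the cytosolic ribosome. They are the genes of the deposited count table whose symbol is Rps or Rpl with a number, after which only 1 letter (A, X or L) and a further number may follow, together with the P-stalk genes and Rpsa. Symbols with other endings, such as Rpl36al, Rpl37rt and those of the S6 kinase genes, fall outside the rule. Rps27l was left out by name, and 80 symbols matched before Rps27l was removed. The rule left 79 genes of the 12806 named genes in the table, 48 of the large subunit and 31 of the small subunit. All 79 had a count in every library, and all 79 passed the filter on low counts in each comparison. The set includes the paralogs Rpl7l1 and Rpl22l1 and the copy Rpl32l, each counted with the large subunit. Rpl32l has no coding sequence in the GENCODE vM21 annotation used here. Rpl26 was not analysed here.

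The 10 libraries are of mouse lines of esophageal squamous cell carcinoma on a mixed background, and this cancer arises from the stratified lining of the esophagus. All 10 lines had the genotype Trp53R172H/-, a point mutant Trp53 allele over a null allele, so the controls carry the mutation too. To this was added a short hairpin RNA, either a control (shCtrl) or one that targets Trp53 mRNA (shTrp53). The primary lines, labelled esophagus, were 1 shCtrl line and 1 shTrp53 line, and no harvest time is given for them. The metastatic lines grew out of week 8 lung metastases and had been sorted by YFP fluorescence. They were 5 shCtrl lines (numbers 376, 377, 378, 382 and 383) and 3 shTrp53 lines (384, 386 and 387). Separate mice are not named for the lines within a group, and the p-values therefore rest on the spread between lines. The hairpin sequences are not given in the labels, and each primary group is a single line.

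A ribosome reads messenger RNA on its small subunit and joins amino acids on its large subunit, and each subunit is a scaffold of ribosomal RNA (rRNA) decorated with proteins, nearly all of them present in a single copy. Cells make these proteins in matched amounts. Their mRNAs typically begin with a run of pyrimidines at the first transcribed bases, the TOP motif, through which mTORC1 signalling controls their translation. Several free ribosomal proteins, among them Rpl5, Rpl11 and Rpl23, can bind Mdm2, the ubiquitin ligase of p53. Loss of a copy of some of the genes, most often RPS19, causes Diamond-Blackfan anemia in people.

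The bases around the annotated start show a pyrimidine run in several of these genes. The windows below run from 20 bases before to the first 20 bases at and after a RefSeq start in GRCm38.p6. They read 5′ to 3′ on the gene's own strand, and capitals mark a C followed by at least 5 bases that are C or T, beginning within 20 bases of the start. A marked run can lie before the annotated start, as in Rpl4, Rpl5 and Rpl13, so it need not be a TOP motif. For Rpl35a, which has 3 annotated starts, a start with a run is shown. The first 6 genes fell with the Trp53 hairpin in the metastatic lines, in the full fit and in every fit that left out 1 line. The last 3 were called higher.
Rpl4: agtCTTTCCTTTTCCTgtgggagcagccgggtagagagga
Rps6: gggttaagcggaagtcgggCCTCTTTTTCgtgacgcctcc
Rpl35a: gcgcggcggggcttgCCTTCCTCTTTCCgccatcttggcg
Rpl22l1: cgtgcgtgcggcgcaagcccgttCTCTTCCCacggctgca
Rpl5: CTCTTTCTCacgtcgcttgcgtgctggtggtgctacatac
Rpl23: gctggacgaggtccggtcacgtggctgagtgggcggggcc
Rpl13: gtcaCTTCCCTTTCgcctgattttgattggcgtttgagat
Rps23: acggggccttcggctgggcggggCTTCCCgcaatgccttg
Rpl24: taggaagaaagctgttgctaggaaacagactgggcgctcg
The windows lie at chr9:64173367-64173406 on the plus strand (Rpl4), chr4:86857348-86857387 on the minus strand (Rps6), chr16:33056462-33056501 on the plus strand (Rpl35a) and chr3:28805488-28805527 on the plus strand (Rpl22l1). The other windows lie at chr5:107900508-107900547 on the plus strand (Rpl5), chr11:97782420-97782459 on the minus strand (Rpl23), chr8:123102330-123102369 on the plus strand (Rpl13), chr13:90923102-90923141 on the plus strand (Rps23) and chr16:55966255-55966294 on the plus strand (Rpl24). RefSeq promoter windows of 300 bases, 250 before and 50 after a start, were matched for 59 of the 79 genes.

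A sense-strand pyrimidine run of that kind began within 20 bases before or after an annotated start in 40 of the 59 genes (67.8%). Over all 27025 genes with such a window the share was 34.8%. By outcome of the metastatic knockdown comparison, 15 of 20 genes called lower had a run, 23 of 36 that were not called and 2 of 3 called higher. Thus genes with a run were present in every class, as Rpl4 and Rpl13 show above. Of the motifs sought on both strands of the whole window, CCGGAAG, the core letters of an ETS or GABP site, was in 23 of 59 genes (39%) against 9.93% of all genes. The letters GGGCGG of an Sp1 site were in 37 of 59 (62.7%) against 38.2%, and AAGATGGC, the letters of a YY1 site, in 6 of 59 (10.2%) against 3.19%. The E-box letters CACGTG, bound by Myc and Max among others, were in 6 of 59 genes (10.2%) against 8.09%, and TATAAA in 8 of 59 (13.6%) against 15.7%. CCAAT was in 18 of 59 (30.5%) against 41.1%. By outcome, CCAAT was in 2 of 20 genes called lower, 13 of 36 not called and 3 of 3 called higher. For CCGGAAG these counts were 7, 16 and 0. Differences between these classes were not tested. A match of letters is not a bound site, and genes with more than 1 annotated start were counted when any of their windows matched.

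Libraries held 11057049 to 18431216 counts in named genes. Trp53, the targeted gene, was checked first. In CPM (counts scaled to a common library size by TMM) it ranged from 94.5 to 131 over the metastatic controls and from 5.16 to 7.36 over the metastatic knockdown lines, and in the primary pair it was 73.7 with shCtrl and 6.54 with shTrp53. All 9 markers of squamous epithelium that were looked for were in the table, and their summed level was 9170 to 13500 CPM in the shCtrl and 6360 to 9720 CPM in the shTrp53 metastatic lines, and 12300 and 9580 CPM in the shCtrl and shTrp53 primary lines. With the hairpin in the metastatic lines, the keratins Krt5 (log2 fold change -1.71, adjusted p = 0.0139) and Krt6a (-0.93, adjusted p = 0.0303) fell and the adhesion gene Cdh1 rose (1.44, adjusted p = 0.000661, all edgeR). Krt5 was highest in lines 376 to 378, lower in lines 382 and 383 and lowest in the shTrp53 metastatic lines. Cdh1 ran in the opposite order, and Krt6a showed neither order. For Krt5 and Cdh1, a trend along the line numbers and the knockdown cannot be told apart in full. The part of these marker differences in the ribosomal protein values was not tested. Of the markers of other cells, 3 of 7 fibroblast genes were in the table (1.5 to 10.9 CPM summed), 1 of 7 immune genes (Cd68, at 75 to 143 CPM), 1 of 5 endothelial genes (Pecam1, under 1 CPM) and 0 of 6 lung epithelial genes. Here, as in any bulk RNA sample, fewer cells with a transcript and less of that transcript per cell cannot be told apart.

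The 79 genes differed widely in level. Mean levels over the 10 lines ran from 0.965 CPM to 2560 CPM, with a median of 229 CPM. Rplp0, the scaffold of the P-stalk that recruits elongation factors, was the most abundant at 2560 CPM and held 10.4% of all counts in the set. Rpl4, which lines the tunnel through which the new protein leaves, followed with 5.16%, and Rps2, Rps9 and Rpl13 held 3.68%, 3.68% and 3.67%. Rpl30 (0.965 CPM) and Rps27 (2.06 CPM) stood lowest, with 6 to 21 and 9 to 53 counts per library, then Rpl32l (5.76 CPM), Rpl34 (12.9 CPM) and Rpl22l1 (29.9 CPM). Per kilobase of coding sequence, the median was 469 CPM per kb. This length leaves out the untranslated parts of the mRNA, so genes compare only roughly on it, least of all those with a short coding sequence. Rpl41, whose coding sequence is 75 bases long, came first on that scale at 4109 CPM per kb, and Rplp0 followed at 2692, with Rps9 also near the top at 1544 CPM per kb.

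These levels are uncertain where a gene has near-identical copies. Ribosomal protein genes are known for many processed pseudogenes, and the sources used here do not state how the authors' counting treated reads that match several places. Of the 78 genes with a coding sequence in the GENCODE vM21 annotation, 29 shared every 50-base stretch of it with a transcript of another gene, and the median gene shared 92.3%. In 11 genes less than 50% was shared. Among them Rps3 shared 8.09%, Rpl8 8.73%, Rpl4 20.3% and Rpl7l1 21.9%. Rps27 shared 100% and Rpl30 83.1%, so their low counts cannot be read as low transcript levels. Across the 78 genes, the level per kb and the shared fraction had a Spearman correlation of -0.244, given as a description.

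The share of all counts that fell in the 79 genes was lowest in the shTrp53 lines. It was 3.17%, 2.67%, 2.58%, 2.43% and 2.54% in the shCtrl metastatic lines 376, 377, 378, 382 and 383, and 2.13%, 2.24% and 2.14% in the shTrp53 metastatic lines 384, 386 and 387. In the primary lines it was 2.40% with shCtrl and 2.13% with shTrp53. The 3 shTrp53 metastatic lines lay below all 5 shCtrl ones, with means of 2.17 ± 0.0629% (SD, n = 3) and 2.68 ± 0.288% (SD, n = 5), a difference of -0.504 percentage points. Line 376 stood apart at the top: all 79 genes were above their own mean over the 10 lines in it, against 43 to 66 in the other 4 shCtrl metastatic lines and 21 to 38 in the 3 shTrp53 ones. Line 376 also had the highest share of counts in Rn45s, the rRNA precursor, at 0.0991%, against 0.0478 to 0.0584% in the other 4 shCtrl metastatic lines and 0.0356 to 0.0488% in the 3 shTrp53 ones, and the part of this in the ribosomal protein share was not tested. Without line 376 the difference in that share was -0.381 points. Counting error is small beside these gaps, since the exact binomial 95% interval of the share in line 386 is 2.24 to 2.25% and that in line 382 is 2.42 to 2.44%. Large subunit genes went from 1.63 ± 0.170% (n = 5) to 1.33 ± 0.0136% (n = 3), and small subunit genes from 1.05 ± 0.119% (n = 5) to 0.837 ± 0.0507% (n = 3), again without overlap.

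**Figure D1:**
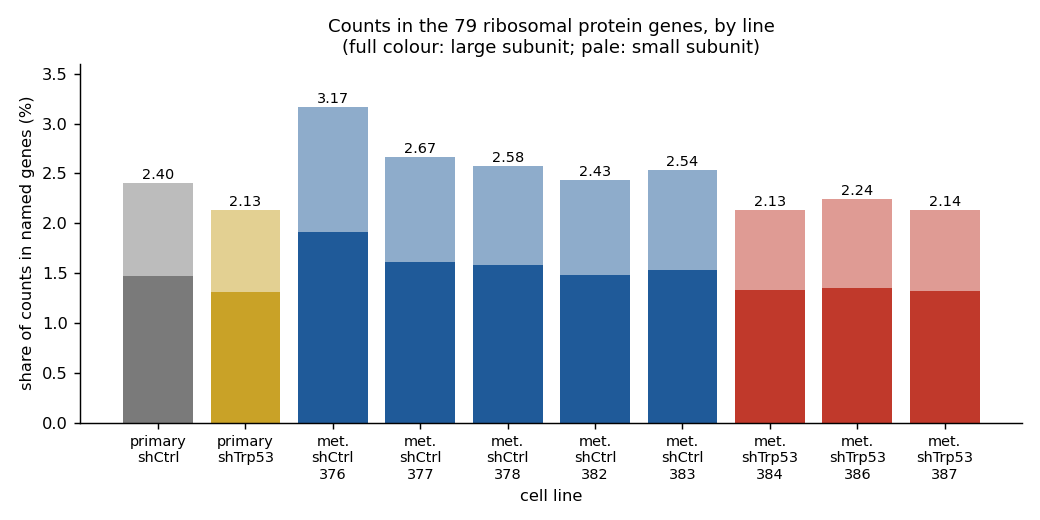
Share of the counts of each library, in percent of counts in named genes, held by the 79 ribosomal protein genes in the 10 lines, with large subunit genes in full colour and small subunit genes in pale colour. The 3 shTrp53 metastatic lines stand at 2.13 to 2.24%, below the 5 shCtrl metastatic lines at 2.43 to 3.17%.

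The main comparison of the study set the 3 shTrp53 against the 5 shCtrl metastatic lines, to find the transcripts that go with mutant p53 in lung metastases. Ribosomal protein mRNAs were mostly lower with the Trp53 hairpin, but unevenly so. Of the 79 genes, 30 fell and 4 rose at an adjusted p under 0.05 (edgeR quasi-likelihood test, Benjamini-Hochberg adjustment over 12120 genes). Among all genes tested, 10.8% were called lower and 10.9% higher. The median log2 difference of the 79 genes was -0.307, against -0.0126 over all genes tested, and 60 of them were below 0, where 50.9% of all genes were. The 30 that fell ranged from -1.53 to -0.33 and the 4 that rose from 0.43 to 0.53, while the 45 that were not called ranged from -0.83 to 0.24. Both subunits took part: 15 of 48 large subunit genes fell and 3 rose (median -0.27), and 15 of 31 small subunit genes fell and 1 rose (median -0.33).

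**Figure D2:**
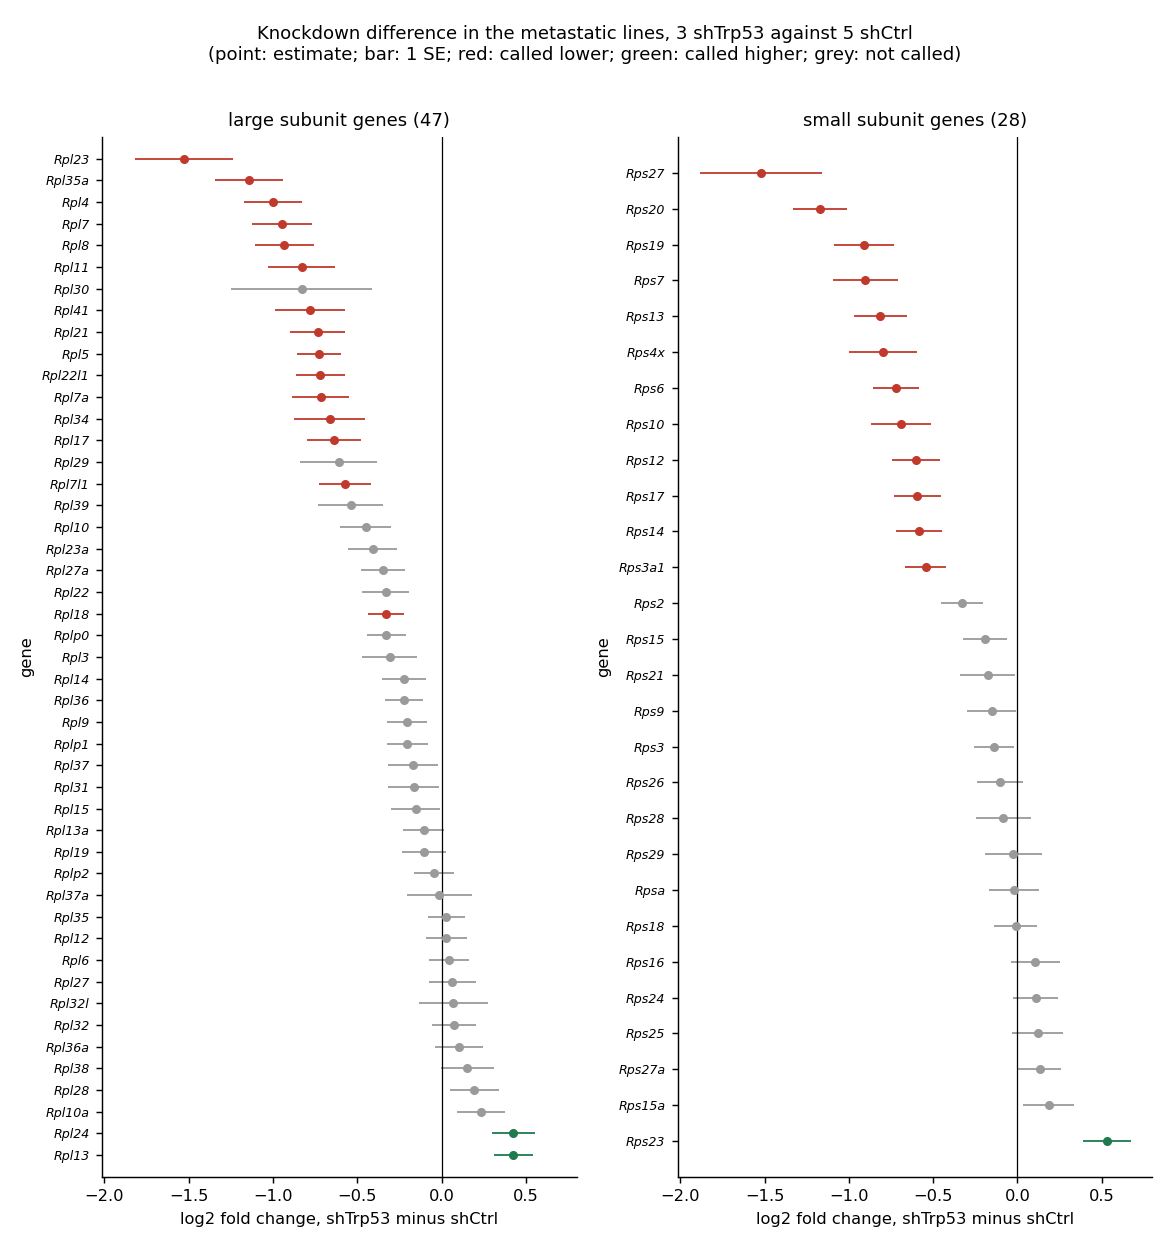
Log2 fold change, shTrp53 minus shCtrl, in the metastatic lines (x axis) of 47 large subunit genes on the left and 28 small subunit genes on the right. Points are estimates from the fit and bars are 1 SE, with genes called lower in red, called higher in green and not called in grey: 15 red and 2 green genes stand in the large subunit panel, and 12 red and 1 green in the small subunit panel.

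Rpl23, a large subunit protein that can bind Mdm2, had the largest fall. It stood at 347, 285, 256, 196 and 144 CPM in shCtrl lines 376, 377, 378, 382 and 383 and at 73.6, 65.2 and 115 CPM in shTrp53 lines 384, 386 and 387. No shTrp53 line reached the lowest shCtrl line (log2 fold change -1.53, SE 0.29, adjusted p = 0.00742, edgeR). Its level also fell along the line numbers within the shCtrl lines. In a fit with a term for lines 376 to 378, explained below, Rpl23 stood at -0.994 (adjusted p = 0.0392, edgeR). Against lines 382 and 383 alone it stood at -0.994 without passing (adjusted p = 0.0738, edgeR). Rps20, a protein of the head of the small subunit, stood at 204, 174, 164, 152 and 133 CPM in the shCtrl lines and at 65.9, 67.6 and 86.0 CPM in the shTrp53 lines. Rps20 had the lowest adjusted p of the set (log2 fold change -1.17, SE 0.16, adjusted p = 0.00186, edgeR), and its groups did not overlap.

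Rpl4, the second most abundant gene of the set, stood at 2001, 1754, 1595, 1415 and 1204 CPM in the shCtrl lines and at 784, 712 and 889 CPM in the shTrp53 lines. The highest shTrp53 line was thus below the lowest shCtrl line, and the log2 fold change was -0.999 (SE 0.17, adjusted p = 0.00511, edgeR). Only 20.3% of the coding sequence of Rpl4 is shared with another gene. Rpl8, which lies near the peptidyl transferase center and shares 8.73%, stood at 596, 496, 419.8, 388 and 367 CPM in the shCtrl lines and at 232, 209.7 and 269.6 CPM in the shTrp53 lines (log2 fold change -0.93, adjusted p = 0.00686, edgeR). The counts of both genes are among those least open to copies. Rps3, with 8.09%, did not pass the test (-0.14, adjusted p = 0.422). Rpl7l1, a paralog of Rpl7, shares 21.9% and fell by 0.57 (adjusted p = 0.0257).

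Other large falls were those of Rps27 (-1.52), Rpl35a (-1.14), Rpl7 (-0.95), Rps19 (-0.91), Rps7 (-0.90), Rpl11 (-0.83) and Rps13 (-0.81), all log2 fold changes with adjusted p between 0.00544 and 0.0168. Rpl35a stood at 75.6, 58.9, 48.9, 41.5 and 44.1 CPM in the shCtrl lines and at 24.8, 23.0 and 25.1 CPM in the shTrp53 lines. The 3 shTrp53 values lay close together and below every shCtrl value. Rps19, the gene most often mutated in Diamond-Blackfan anemia, stood at 432, 398, 371, 319.9 and 242 CPM in the shCtrl lines and at 191, 174 and 195 CPM in the shTrp53 lines, again without overlap.

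Rpl5 and Rpl11, which bind an rRNA of the large subunit together and can hold Mdm2, both fell. Rpl5 stood at 493, 434, 398, 375 and 422 CPM in the shCtrl lines and at 224, 260.4 and 282 CPM in the shTrp53 lines (log2 fold change -0.73, SE 0.13, adjusted p = 0.00563, edgeR). Rpl11 stood at 272, 212, 189, 157 and 143 CPM and at 96.8, 115 and 116 CPM (-0.83, SE 0.20, adjusted p = 0.0168, edgeR). Each had its 3 shTrp53 lines below all 5 shCtrl lines. Rpl5 passed in all 8 fits that left out 1 line. Rpl11 did not pass without line 384 or 386 (adjusted p = 0.0741 and 0.0526, edgeR). In the fit with the term used for Rpl23 above, Rpl5 stood at -0.636 (adjusted p = 0.0265, edgeR). Rpl11 stood at -0.452 there without passing (adjusted p = 0.107). Against lines 382 and 383 alone, Rpl5 passed (adjusted p = 0.0414, edgeR) and Rpl11 did not (0.0813). The shCtrl levels of Rpl11 also fell along the line numbers. Of the 12 genes listed as Mdm2 binders, 7 fell and 0 rose, with a median of -0.66. Rpl5, Rpl11, Rpl23, Rps7, Rps14, Rps20 and Rps27 fell, and Rps3, Rps15, Rps25, Rps26 and Rps27a did not pass. By unadjusted p under 0.05, 7 of the 12 were lower and none of the 12 was higher, where 19.3% of all genes tested were lower and 18.1% higher. Of the 18 genes of Diamond-Blackfan anemia in the table, 9 fell and 0 rose (median -0.25), and 9 were lower and 0 higher at an unadjusted p under 0.05. The genes of both lists all belong to the 79, of which 30 fell and 4 rose (median -0.307). At that unadjusted p, 38 of the 79 were lower and 4 higher. Neither list was tested against the rest of the 79. Rps27, which is in both lists, rests on 9 to 53 counts per library.

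Rps6, the substrate of S6 kinase, fell from 430.2, 359, 328, 317 and 306 CPM to 199, 207 and 225 CPM (-0.72, SE 0.14, adjusted p = 0.00690, edgeR). The P-stalk genes showed no call: Rplp0 had a log2 fold change of -0.33 (adjusted p = 0.0701), Rplp1 of -0.20 (adjusted p = 0.246) and Rplp2 of -0.04 (adjusted p = 0.823) in edgeR. Rplp0 nonetheless did not overlap between groups, at 2925, 2850, 2718, 2857 and 3015 CPM against 2339, 2063 and 2456 CPM. Limma voom, DESeq2 and library totals without TMM did call Rplp0 lower, at adjusted p of 0.0499, 0.0124 and 0.0485. Rpl22l1, the paralog that can take the place of Rpl22, fell (-0.72, adjusted p = 0.00900), and Rpl22 itself stood at -0.33 without passing (adjusted p = 0.107). The difference between these paralogs was not tested.

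Of the genes at the functional core and the exit tunnel, Rpl3 (-0.31, adjusted p = 0.191), Rpl10 (-0.45, adjusted p = 0.0551) and Rpl39 (-0.54, adjusted p = 0.0679) did not pass in edgeR, and Rpl36a stood at 0.10 (adjusted p = 0.619). Rpsa, which is also known as a laminin receptor, stood at -0.02 (adjusted p = 0.941), and Rps27a, which is made as a fusion to ubiquitin, at 0.13 (adjusted p = 0.483). The abundant genes Rps2 (-0.33, adjusted p = 0.0786) and Rps9 (-0.15, adjusted p = 0.475) were not called either. DESeq2 and limma voom did call lower Rps2 (adjusted p of 0.0346 and 0.0354), Rpl10 (0.0306 and 0.0198) and Rpl39 (0.0426 and 0.0301). The Rps2 groups did not overlap.

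Rps23, whose protein sits at the decoding site, Rpl13 and Rpl24 were among the 4 that went the other way. Rps23 stood at 363, 271, 281, 324 and 354 CPM in the shCtrl lines and at 446, 530.1 and 403 CPM in the shTrp53 lines (log2 fold change 0.53, SE 0.14, adjusted p = 0.0247, edgeR). Rpl13 stood at 881, 768, 779, 860.4 and 854 CPM and at 1162, 1177 and 992 CPM (0.43, SE 0.12, adjusted p = 0.0267, edgeR). In both, every shTrp53 line lay above every shCtrl line. Rpl24 rose by 0.43 (adjusted p = 0.0376). Rpl13 lies on chromosome 8 and Rps23 on chromosome 13, where the other tested genes had medians of 0.298 (652 genes) and 0.321 (450 genes). On the other chromosomes that hold members, the medians of other genes ran from -0.237 to 0.0518, and Rpl24 lies on chromosome 16 (0.0518, 375 genes). The part of these chromosome-wide values in these rises was not tested. Rpl13, Rps23 and Rpl24 share 100% of their coding 50-base stretches with other genes.

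Read by overlap alone, 37 of the 79 genes were lower in all 3 shTrp53 lines than in any of the 5 shCtrl lines, and 4 were higher. Over all genes tested, 14.8% were lower and 14.6% higher in that sense. The line numbers moved with the levels. In 24 of the 79 genes each of lines 376 to 378 was above both of lines 382 and 383, and each of these was above all of lines 384 to 387, a pattern seen in 6.54% of all genes tested. Of the 30 genes that fell, 22 had it. All 30 had groups without overlap, which this order requires, so the 22 are not to be set beside the 6.54%. The opposite order was seen in 0 of the 79 genes and in 5.43% of all genes. The shTrp53 lines have the highest numbers, so a trend along the numbers and the knockdown cannot be told apart in full. The shCtrl lines themselves fall in 2 runs of numbers, which were used for 2 further fits. With a term for lines 376 to 378, 14 genes were lower and 0 higher, 13 of them among the 30 and the other Rpl3, where 3.44% of all genes were called lower and 4.35% higher. All 30 kept a negative value in that fit. Against lines 382 and 383 alone, 12 genes were lower, all of them among the 30, and 0 higher, beside 1.91% and 3.14% of all genes.

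**Figure D3:**
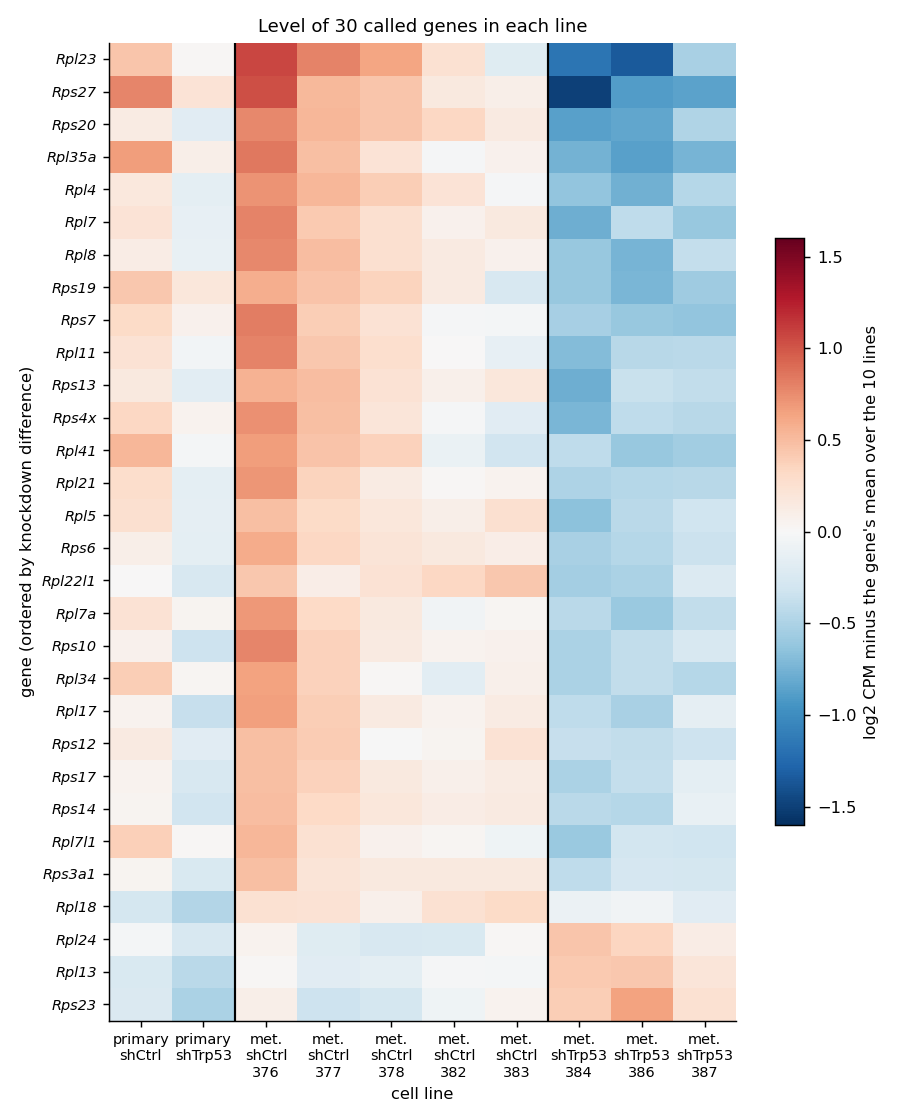
Level of 30 called genes in each of the 10 lines, as log2 CPM minus the gene's mean over the lines (colour), with vertical lines between primary, shCtrl metastatic and shTrp53 metastatic lines. In most of the 27 rows of genes that fell, red is deepest in line 376 and pales toward lines 382 and 383. These rows turn blue in lines 384, 386 and 387. The 3 lowest rows, Rpl24, Rpl13 and Rps23, are highest in lines 384, 386 and 387. They do not rise in steps from line 376, which is their highest shCtrl metastatic line.

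Of the 30 genes that fell, 14 passed in all 8 fits that left out 1 line, among them Rpl4, Rpl5, Rpl7, Rpl8, Rpl22l1, Rpl23, Rpl35a, Rps6, Rps7, Rps13, Rps19 and Rps20. Without line 384 the count of genes that fell was 14, beside 3.89% of all genes, and without line 386 it was 18, beside 4.12%. The 4 rises passed in none of the fits without line 377, 378, 384 or 386. Against a fold change of 1.5 in place of 0, 2 genes passed as lower and 0 as higher, beside 0.883% and 1.84% of all genes.

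Some features of the genes were set beside the knockdown difference. Of the 11 genes with under 50% shared coding sequence, 5 fell and 0 rose (6 and 0 at an unadjusted p under 0.05), with a median of -0.33, and of the 67 genes with at least 50%, 25 fell and 4 rose, with a median of -0.31. Many ribosomal protein genes carry small nucleolar RNAs in their introns. In the 30 genes with a small nucleolar RNA annotated inside, 12 fell and 2 rose (median -0.43), and in the 48 genes without one, 18 fell and 2 rose (median -0.20). Beside these classes, 30 of all 79 genes fell and 4 rose, and 10.8% of all genes tested fell and 10.9% rose. Across genes, as a description, the knockdown difference had a Spearman correlation of 0.233 with the GC content of the coding sequence in the 78 members and of 0.0468 in 11373 tested genes. With coding length it was -0.144 in the members and -0.134 in all, and with mean CPM it was 0.153 in the 79 members.

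Of the 5 ribosomal proteins outside the rule, Rack1, a scaffold on the head of the small subunit, fell from 1262, 1046, 832, 909 and 1034 CPM to 614, 806 and 741 CPM (-0.49, adjusted p = 0.0480, edgeR). Fau (0.42, adjusted p = 0.0545), Rpl36al (0.21, adjusted p = 0.330) and Rps27l (0.23, adjusted p = 0.176) did not pass.

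Genes that build ribosomes were partly lower as well. Of 38 biogenesis factors, 8 fell and 0 rose (median -0.17), with 10 lower and 3 higher at an unadjusted p under 0.05. Over all genes tested, 10.8% fell and 10.9% rose, with 19.3% lower and 18.1% higher at that unadjusted p. Npm1, a nucleolar chaperone, fell from 1967, 1715, 1344, 1600 and 1492 CPM to 841, 894 and 1186 CPM (-0.73, adjusted p = 0.0136, edgeR). Dkc1, the pseudouridine synthase of the box H/ACA particles, fell by 0.82 (adjusted p = 0.0102), Brix1 by 0.78 (adjusted p = 0.0256) and Wdr12 by 0.66 (adjusted p = 0.0280). Of 15 genes of RNA polymerase I and its factors, which transcribe rRNA, 3 fell and 0 rose. They were Polr1c (-0.48, adjusted p = 0.0211), Polr1e (-0.66, adjusted p = 0.0430) and Polr1b (-0.58, adjusted p = 0.0472, edgeR). At an unadjusted p under 0.05, 7 of the 15 were lower and 0 higher. Brix1, Wdr12, Polr1c and Polr1e fell in steps along the line numbers, and Npm1, Dkc1 and Polr1b did not. For those in steps, a trend along the numbers and the knockdown cannot be told apart in full.

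Of 20 translation factors and other genes with TOP mRNAs, 6 fell and 1 rose (median -0.30), with 9 lower and 1 higher at an unadjusted p under 0.05. For this list and the next 2, the shares over all genes tested were 10.8% called lower and 10.9% called higher. At an unadjusted p under 0.05 they were 19.3% and 18.1%. Eef1d (-0.96, adjusted p = 0.0145), Eef2 (-0.78, adjusted p = 0.00806) and Eif3e (-0.46, adjusted p = 0.0373) were lower, and Btf3 was higher (0.49, adjusted p = 0.0329). Of 19 initiation factors, 6 fell, among them Eif4a1 (-0.72, adjusted p = 0.0167), Eif5 (-0.80, adjusted p = 0.0346) and Eif4g2 (-0.61, adjusted p = 0.00854), and Eif2b1 rose (0.43, adjusted p = 0.0221). At an unadjusted p under 0.05, 9 of the 19 initiation factors were lower and 2 higher. In the list of mTORC1 and its regulators, 3 of 19 genes fell and 6 rose, with 5 lower and 6 higher at that unadjusted p. Rragc (0.42, adjusted p = 0.0338), Lamtor1 (0.49, adjusted p = 0.0110) and Lamtor2 (0.47, adjusted p = 0.0155), which hold mTORC1 at the lysosome, were higher, while Larp1, which binds TOP mRNAs, was lower (-0.42, adjusted p = 0.0499). The other 2 that fell were core subunits of mTORC1, Mlst8 (-1.20, adjusted p = 0.0166) and the kinase Mtor itself (-0.75, adjusted p = 0.0221). The others that rose were Akt1s1 (0.55, adjusted p = 0.0195), Tbc1d7 (0.59, adjusted p = 0.0159) and Rragd (2.04, adjusted p = 0.0195). Rragd stood at 4.88 CPM at most. The test of each is edgeR's quasi-likelihood test. Eef1d, Eif4a1 and Mtor fell, and Btf3, Rragd and Akt1s1 rose, in steps along the line numbers. The other genes named here did not. Where the steps were seen, a trend along the numbers and the knockdown cannot be told apart in full.

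Myc, a transcription factor known to raise ribosomal genes, was higher in the shTrp53 lines. Its levels were 424, 611, 549, 904 and 837 CPM in the shCtrl lines and 980.1, 1282 and 999.5 CPM in the shTrp53 lines, without overlap (log2 fold change 0.71, SE 0.23, adjusted p = 0.0478, edgeR). Mxd1, which opposes Myc at E-boxes, rose by 1.84 (adjusted p = 0.00393). Both genes rose in steps along the line numbers, lowest in lines 376 to 378, then lines 382 and 383, then the shTrp53 lines. For them too, a trend along the numbers and the knockdown cannot be told apart in full. Of the 10 genes of the Myc and Mdm2 list these were the 2 called, beside 10.9% of all genes tested that were called higher and 10.8% lower.

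In the primary pair, 78 of the 79 genes were lower in the shTrp53 line than in the shCtrl line. The median log2 ratio was -0.317, against -0.0124 over the 12779 genes with a count in the pair, of which 51.3% were below 0. There was 1 line of each kind, so the pair has no replicate check and no test. The ratios were even: they had an SD of 0.131 over the genes and quartiles of -0.372 and -0.253. Of the 79, 0 were past 1.5-fold, where 21.8% of the 12779 genes were. Those 12779 include genes with few counts, so the 2 shares are not of genes at like levels. In the metastatic comparison the SD over the same genes was 0.451. Scaled by library totals in place of TMM, a choice made after seeing the data, 74 genes were below 0 and the median was -0.166, beside 0.136 for all genes, of which 35.2% were below 0. The TMM factor of the shTrp53 primary line was 1.12.

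Rpl35a (log2 ratio -0.58), Rpl41 (-0.57), Rps15 (-0.49) and Rps26 (-0.47) had the lowest ratios among genes of at least 10 CPM. Rpsa (-0.10), Rpl15 (-0.13), Rpl14 (-0.13) and Rps15a (-0.15) had the ratios nearest 0. The exception above 0 was Rpl30, at 0.41 with a 95% counting interval of -1.26 to 2.39, from 0.389 and 0.565 CPM. The genes that fell in the metastatic comparison had a median ratio of -0.326 in the primary pair, those not called -0.313 and the 4 that rose -0.206. Rpl13 went from 738 to 647 CPM and Rps23 from 289 to 240.4 CPM, so with TMM scaling these genes were lower with the hairpin in the primary pair and higher in the metastatic lines. The primary values rest on 1 line each and depend on the scaling, and neither gene was called in the interaction test below.

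**Figure D4:**
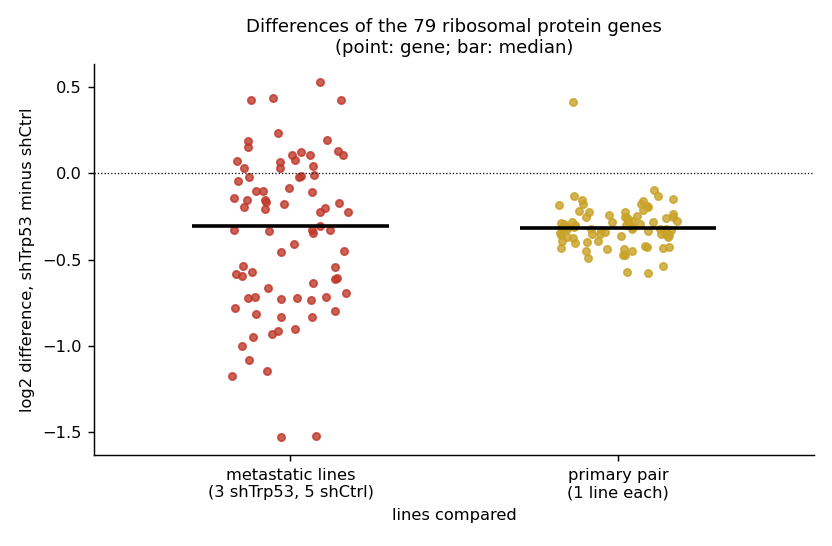
Log2 difference, shTrp53 minus shCtrl, of each of the 79 genes (points) in the metastatic lines and in the primary pair, with medians as bars. The medians are -0.307 and -0.317, and the points spread from -1.53 to 0.53 in the metastatic lines and, apart from Rpl30 at 0.41, from -0.58 to -0.10 in the primary pair.

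Whether the knockdown difference itself differed between metastatic and primary lines was tested as an interaction in a fit of 4 groups. No gene of the 79 was called in edgeR, and 0 of all 12754 genes tested were (0%). At an unadjusted p under 0.05 there were 5 of the 79, beside 9.16% of all genes. Among them were Rps23 (0.79), Rpl24 (0.64) and Rpl13 (0.61), whose difference was more positive in the metastatic lines, and Rps20 (-0.86), each with an adjusted p of 0.519 to 0.540. DESeq2 called 0 of the 79, and 18 of all genes as more positive and 34 as more negative, and limma voom called 0 of the 79. The primary groups have 1 line each, so the spread in this fit comes from the metastatic lines alone.

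Between sites, 8 metastatic lines were set against the 2 primary lines with the hairpin as a covariate. The set leaned to higher levels in the metastatic lines: 9 of the 79 genes were higher and 0 lower at an adjusted p under 0.05 in edgeR, where 7.14% of the 12603 genes tested were higher and 7.65% lower. The median log2 difference was 0.164 for the 79 genes and -0.0345 for all, and 54 of the 79 were above 0, beside 47.4% of all genes. At an unadjusted p under 0.05, 22 were higher and 2 lower, where 15.9% and 17.5% of all genes were. DESeq2 and limma voom called 0 of the 79 lower. In 19 genes both primary lines lay below all 8 metastatic lines, and in 0 genes above them, where 10.6% and 11.3% of all genes did.

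Rpl10a had the largest called rise. It stood at 100.3 CPM in the shCtrl and 88.5 CPM in the shTrp53 primary line, at 141, 127, 128, 156 and 176 CPM in the shCtrl metastatic lines and at 156, 196 and 161 CPM in the metastatic lines with shTrp53 (log2 fold change 0.73, SE 0.17, adjusted p = 0.0190, edgeR). Rps27a stood at 228 and 179.9 CPM in the primary lines, at 356, 285, 282, 312 and 364 CPM in the shCtrl and at 330.2, 382 and 337 CPM in the metastatic lines with shTrp53 (0.70, SE 0.16, adjusted p = 0.0175, edgeR). In both genes all 8 metastatic lines were above both primary lines. The others were Rps15a (0.70), Rpl12 (0.55), Rps18 (0.53), Rplp1 (0.50), Rps3 (0.46), Rpl18 (0.44) and Rpl36 (0.43), with adjusted p from 0.0237 to 0.0432. Of these 9 genes, Rpl18 was also among the 30 that fell with the hairpin in the metastatic lines, a fall that passed in 0 of the 8 fits without 1 line (adjusted p up to 0.143), and the other 8 were not called there.

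**Figure D5:**
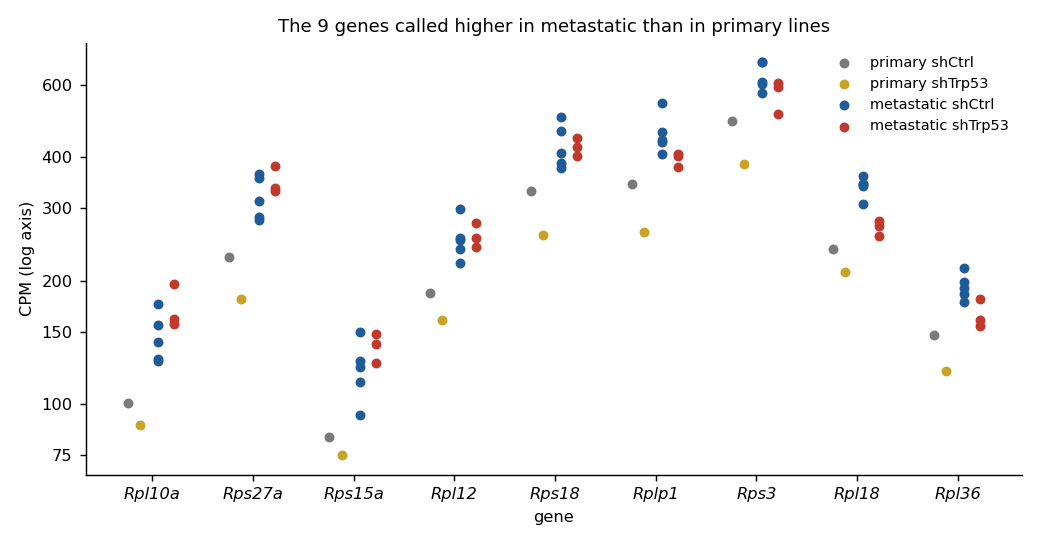
Level in CPM (log axis) of the 9 genes called higher in metastatic than in primary lines, with 1 point per line, coloured by group. For every gene the 2 primary points lie below the 8 metastatic points, for example at 88.5 and 100.3 CPM against 127 to 196 CPM for Rpl10a.

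These site calls rest on few primary lines. Without the shTrp53 primary line 0 genes were called higher (0.424% of all genes), without the shTrp53 metastatic line 387 there were 3 (4.13%), and without line 382 or line 384 there were 4 (5.06% and 5.10%). With the shCtrl lines alone 0 were called higher (0.248% of all genes), and without the covariate 3 were (2.43%). With the shTrp53 lines alone 11 were higher and 3 lower, beside 7.87% and 7.19% of all genes. Scaled by library totals, 5 genes were higher (5.84% of all genes), the median of the set was 0.0599 and that of all genes tested was -0.144, with 736 genes higher and 1296 lower in place of 900 and 964. DESeq2 called 18 higher, beside 12.2% of all genes, and limma voom 1, beside 2.33%.

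The spread from line to line was read as the coefficient of variation within a group. Over the 76 members with a mean of at least 10 CPM, its median was 14.4% in the 5 shCtrl lines and 9.7% in the 3 shTrp53 lines, beside 16.2% and 12.2% over 8239 genes. In the shCtrl lines Rpl23 varied most, at 32%, and Rplp0 least, at 3.81%.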

How the data were processed

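SMART-Seq v4 cDNA of 10 cell lines was sheared before ThruPLEX library construction, per the labels' protocols. The authors deposited 1 table of whole-number counts per gene, with 1 column per line. Tools listed in the submitters' processing notes are STAR 2.5, Cufflinks 2.2.1 and DESeq2, with build mm9. The sources used here state no role for them, no annotation, no strand setting and no treatment of reads that match several places. Of 12824 rows, 18 hold a bare number for a name (0.332 to 0.491% of counts) and were left out.

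The quasi-likelihood test of edgeR 4.0.16 (R 4.3.3) was fitted after filterByExpr and TMM, with robust dispersion, and its p-values were adjusted over all genes tested by Benjamini-Hochberg. Genes were called at an adjusted p under 0.05. CPM were scaled by TMM over the 10 libraries. The primary pair was described by log2 CPM ratios (prior count 2, counting intervals of 95%) without a test. Intervals cover counting error only. Groups came from the titles, no batch is named in them, and no 2 libraries were identical.

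Symbols were matched to RefSeq (GRCm38.p6), and coding features came from GENCODE vM21, of the same build. No coordinates of the authors' build are given. A 50-base stretch counted as shared when it was found in a transcript of another gene.

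The members and gene lists were chosen with earlier results of these data known. The text names the 12 largest calls each way for the knockdown and the site, the 4 largest ratios each way of the primary pair, the 5 highest and 5 lowest members by level, the members of fixed short lists, and up to 4 called genes of each other list. Genes listed beside a count and genes named for the sequence they share were added after their values were seen. Some genes these rules took are not reported here by name, and figures that label genes leave them out. Alternatives were other scalings, DESeq2 1.42.0, voom with quality weights from limma 3.58.1, stricter and looser low-count filters, subsets of the lines, the omission of each line in turn and a 1.5-fold threshold. The scripts were tested on simulated data.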

Additional observations from a re-analysis of the deposited data

Results flagged for a closer look

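Within the 5 shCtrl metastatic lines, line 376 lay far above the other 4 for 3 of the 47 named genes checked, by Dixon's criterion. Rpl15 stood at 203 CPM in line 376 and at 142 to 157 CPM in the others. Rpl39, at 134 CPM, was above the 74.8 to 87 CPM of the others. Rpl10 stood at 460 CPM, above 314 to 348 CPM. Chance flags about 1 in 20 groups.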

How the results depend on the processing

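No paired analysis was possible because the groups share no line numbers. In the metastatic knockdown comparison, the count of genes that fell (30) stayed within 1.5 times under the other scalings, tests, filters and dispersion settings tried. It was 2 against a 1.5-fold change, 14 with a term for lines 376 to 378 and 12 against lines 382 and 383 alone. The count of genes that rose (4) was 0 in each of those 3 settings. Leaving out 1 line gave 14 to 30 lower and 0 to 4 higher. For sites, the count of genes called higher (9) was 5 with library totals, 18 with DESeq2, 1 with limma voom, 3 without the covariate and 0 with the shCtrl lines alone, and leaving out 1 line gave 0 to 10. The count called lower (0) was 3 with the shTrp53 lines alone, and 0 to 1 on leaving out 1 line, with 1 without line 376. The difference in the share of counts was -0.565 to -0.381 percentage points on leaving out 1 line. Values near 0 that were not called changed sign. Rps18 was 0.0437 with limma voom, and Rpl12 was -0.0902 with the term for lines 376 to 378 and -0.0897 against lines 382 and 383. On leaving out 1 line, Rps18 ranged from -0.0556 to 0.0565, Rpl12 from -0.0177 to 0.0998, Rpsa from -0.188 to 0.0713 and Rplp2 from -0.0868 to 0.00893. Where the number of lines or genes tested did not change, the cause was not tested. Rpl30 and Rps27 rest on at most 21 (Rpl30) and 53 (Rps27) counts per library.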
